A study of Homo sapiens with 3 samples.

Results

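The regions described here are places where SOX4 chromatin immunoprecipitation gave a summit in replicate 3 alone and where 2 or more protein-coding genes had an end within 1 kb. They numbered 325, among 2344 regions of replicate 3 alone on the same 19 autosomes and 6199 regions of all libraries in the whole genome. They were chosen by the readout itself. Neighbouring summits, from whichever library, were merged while no gap exceeded 200 bp, and a merged region was kept when it held summits of replicate 3 only, lay on an autosome other than 5, 8 and 9, and had its midpoint within 1 kb of ends of at least 2 genes of the RefSeq table of GRCh38. Presence in replicate 3, absence from replicates 1 and 2, and closeness to 2 genes are therefore given as descriptions and were not tested.

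The study profiled SOX4 by ChIP-seq in BT549, a human cell line from a triple-negative breast tumour. The 3 libraries, titled UT (an abbreviation that the labels do not spell out), all from cells at passage 5 by the labels and all made with an Abcam antibody to SOX4, form 1 group with no second condition and no control library analysed here, so 1 line stands for the tumour type. The labels do not say that they came from separate cultures. The deposited lists held 1368, 1713 and 4430 summits of 1 bp in replicates 1, 2 and 3, each scored by the authors on a −log10 scale (of p or of q, which is not given). Read depth is unknown, and intervals below are exact 95% binomial intervals that cover counting error only.

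SOX4 is a transcription factor that bends DNA through a high-mobility-group domain, recognises short A/T-rich sequences, and is known in breast cancer for its part in TGF-beta signalling and in the epithelial to mesenchymal transition. Genes that lie head-to-head, with their starts close together on opposite strands, can be transcribed outward from 1 shared stretch of DNA, called a bidirectional promoter. Such promoters are usually rich in CpG dinucleotides, seldom have a TATA box, and serve many genes that every cell uses, among them genes of DNA repair, mitochondria and translation.

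The promoter windows of a few head-to-head pairs show the DNA in question. They are given from RefSeq (GRCh38.p14), 5′ to 3′ on the strand of the named gene, from 250 bases before its start to 50 bases from the start on. The first 3 belong to the highest-scoring head-to-head pairs whose windows both start within 1 kb of the summit, and the fourth to DDB1 with TKFC, where the windows of both genes hold the summit. Capitals mark GC boxes (GGGCGG), the CCAAT box of the factor NFY, and the SOX cores AACAAT or its fellow ACAAAG, on either strand.
SFXN2: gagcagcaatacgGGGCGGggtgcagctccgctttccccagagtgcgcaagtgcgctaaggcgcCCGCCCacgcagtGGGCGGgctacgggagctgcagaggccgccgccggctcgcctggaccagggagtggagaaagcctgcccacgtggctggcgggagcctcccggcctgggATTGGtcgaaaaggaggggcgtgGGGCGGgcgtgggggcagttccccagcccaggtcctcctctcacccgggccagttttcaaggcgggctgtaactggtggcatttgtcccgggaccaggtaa
TMED5: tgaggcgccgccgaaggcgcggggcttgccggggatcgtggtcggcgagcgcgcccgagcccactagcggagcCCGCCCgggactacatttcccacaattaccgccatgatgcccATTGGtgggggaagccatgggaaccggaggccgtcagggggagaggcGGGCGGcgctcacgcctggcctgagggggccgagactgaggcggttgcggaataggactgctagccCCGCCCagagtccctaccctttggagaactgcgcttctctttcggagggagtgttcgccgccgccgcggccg
PI4KA: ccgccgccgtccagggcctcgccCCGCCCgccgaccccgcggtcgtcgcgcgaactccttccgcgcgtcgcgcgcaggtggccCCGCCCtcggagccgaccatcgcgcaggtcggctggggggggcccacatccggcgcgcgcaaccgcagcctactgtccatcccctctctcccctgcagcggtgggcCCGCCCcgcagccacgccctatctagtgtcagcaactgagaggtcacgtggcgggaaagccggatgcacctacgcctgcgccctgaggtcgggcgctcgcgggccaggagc
TKFC: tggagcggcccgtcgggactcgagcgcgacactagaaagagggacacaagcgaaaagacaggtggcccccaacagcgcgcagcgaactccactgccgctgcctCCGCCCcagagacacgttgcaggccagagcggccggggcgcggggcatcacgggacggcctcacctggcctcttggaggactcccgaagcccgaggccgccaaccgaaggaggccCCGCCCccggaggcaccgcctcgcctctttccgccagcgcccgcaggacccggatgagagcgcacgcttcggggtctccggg
The SFXN2 window lies at chr10:102714386-102714685 (plus strand), the TMED5 window at chr1:93180364-93180663 (minus), the PI4KA window at chr22:20858762-20859061 (minus) and the TKFC window at chr11:61332978-61333277 (plus). GC boxes stand in all 4, a CCAAT box in those of SFXN2 and TMED5, and a SOX core in none of the 4.

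A further 3 windows were picked because they hold the summit and a SOX core, and lie at head-to-head genes with the core nearest to the summit. Capitals mark that core.
LOC124904903: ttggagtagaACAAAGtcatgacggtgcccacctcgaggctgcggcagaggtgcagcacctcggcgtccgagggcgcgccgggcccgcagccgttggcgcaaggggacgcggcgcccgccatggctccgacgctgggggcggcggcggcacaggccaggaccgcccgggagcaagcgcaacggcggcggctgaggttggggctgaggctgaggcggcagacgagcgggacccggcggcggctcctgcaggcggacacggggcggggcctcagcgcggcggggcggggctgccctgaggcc
IFT25: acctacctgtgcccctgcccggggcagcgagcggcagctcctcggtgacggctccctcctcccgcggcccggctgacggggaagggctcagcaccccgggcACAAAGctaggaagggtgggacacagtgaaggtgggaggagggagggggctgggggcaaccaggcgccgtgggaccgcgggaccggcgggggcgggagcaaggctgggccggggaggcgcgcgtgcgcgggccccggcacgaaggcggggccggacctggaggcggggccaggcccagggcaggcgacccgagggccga
MPLKIP: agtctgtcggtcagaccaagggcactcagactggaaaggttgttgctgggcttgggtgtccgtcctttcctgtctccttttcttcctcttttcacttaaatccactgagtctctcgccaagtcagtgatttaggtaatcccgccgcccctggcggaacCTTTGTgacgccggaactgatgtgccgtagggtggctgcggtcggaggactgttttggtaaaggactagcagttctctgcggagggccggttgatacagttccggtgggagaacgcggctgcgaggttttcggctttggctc
The first window, chr20:41137464-41137763 on the minus strand, belongs to LOC124904903, the head-to-head neighbour of PLCG1, a gene of phospholipase C gamma. Its core began at base 11 of the window and the summit fell on base 28, which are 17 bp apart. In the IFT25 window, chr1:53946256-53946555 (minus), core and summit were 87 bp apart, and in the MPLKIP window, chr7:40134573-40134872 (minus), 99 bp.

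Of the 325 sites, 315 had ends of 2 coding genes in reach and 10 had ends of 3. They touched 617 genes, 43 of them at 2 sites. That is 3.69% of the 16729 coding genes on these autosomes, and 9.87% of the 6253 whose end lies within 2 kb of an end of another coding gene, the genes that could be at such a site. In all but 1 site the region was a single summit, so its position is 1 base. The number depends on the reach allowed: with gene ends within 500 bp it was 200, and with gene starts alone 211. Among regions of replicate 3 alone, 13.9% (12.5 to 15.3%) were at ends of 2 or more genes, against 8.90% (6.09 to 12.5%) of the 337 regions of replicate 1 alone and 7.62% (5.04 to 10.97%) of the 341 of replicate 2 alone. Regions of 2 libraries were at 13.5% (10.2 to 17.4%) and regions of 3 libraries at 7.60% (4.11 to 12.6%). Counted over regions at any coding gene end, the shares were 21.2% (19.2 to 23.3%) for replicate 3 alone, against 18.1% (12.5 to 24.8%) for replicate 1 alone and 20.97% (14.2 to 29.2%) for replicate 2 alone. Regions of 2 libraries stood at 23.4% (17.9 to 29.6%) and regions of 3 libraries at 24.5% (13.8 to 38.3%). The intervals of this second set all overlap. In the first set, over all regions, the interval of replicate 3 alone began at 12.49%. That is above the upper limit of 10.97% for replicate 2 alone and just above that of 12.46% for replicate 1 alone.

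The orientation of the genes, which the choice of sites did not use, was known at 271 of the 325 sites. At 193 of these (71.2%, 65.4 to 76.5%) the starts of 2 genes on opposite strands were within 1 kb of the site, the head-to-head arrangement. At 59 (21.8%, 17.01 to 27.2%) the start of a gene followed the stop of its neighbour on the same strand, the tandem arrangement. The remaining 19 (7.01%) held 14 pairs of starts on the same strand and 5 of a start beside the stop of a gene on the opposite strand. Each site was given 1 class, in the order head-to-head, tandem, tail-to-tail (2 facing stops) and other, and none was left for the tail-to-tail class. The stops of PLCB3 and BAD face each other at a site that was classed as tandem for GPR137. H2AC20 and H2AC21, 2 short histone genes with facing stops, were classed as head-to-head because their starts were also within 1 kb, and were the only such case among the 193 sites and among the 1064 head-to-head pairs below. At 54 sites the reference gave no strand for a gene that decides the class. The sites are therefore candidate divergent promoters in most cases and not in all. A high head-to-head share was not particular to them. It was 82.1% (69.6 to 91.1%) of 56 regions of 2 or 3 libraries at 2 or more genes with known orientation. The share was 95.8% (78.9 to 99.9%) of 24 such regions of replicate 1 alone and 65.0% (40.8 to 84.6%) of 20 of replicate 2 alone.

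All pairs of coding genes with ends within 2 kb of each other on these autosomes give the background for that pattern. There were 4115 such pairs, and 326 (7.92%) had both genes at 1 of the sites. Of 1064 head-to-head pairs, 184 did (17.3%, 15.1 to 19.7%), against 59 of 795 tandem pairs (7.42%, 5.70 to 9.47%) and 2 of 812 tail-to-tail pairs (0.246%, 0.0298 to 0.887%), which were PLCB3 with BAD and AMDHD2 with CEMP1. Regions of 2 or 3 libraries were at 48 head-to-head pairs (4.51%), 8 tandem pairs (1.01%) and 0 tail-to-tail pairs (up to 0.453%), which is the same order. Regions of replicate 1 alone were at 25 head-to-head, 1 tandem and 0 tail-to-tail pairs, and regions of replicate 2 alone at 13, 4 and 1. These counts describe the lists and carry no test, since pairs share genes and the sites were chosen on closeness to genes. Spacing also differed by orientation. The closest ends were a median of 239 bp apart over all head-to-head pairs, 853 bp over tandem pairs and 530 bp over tail-to-tail pairs. A site must lie within 1 kb of both genes, so wider pairs leave less room for one. The shares were not adjusted for spacing.

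**Figure D1:**
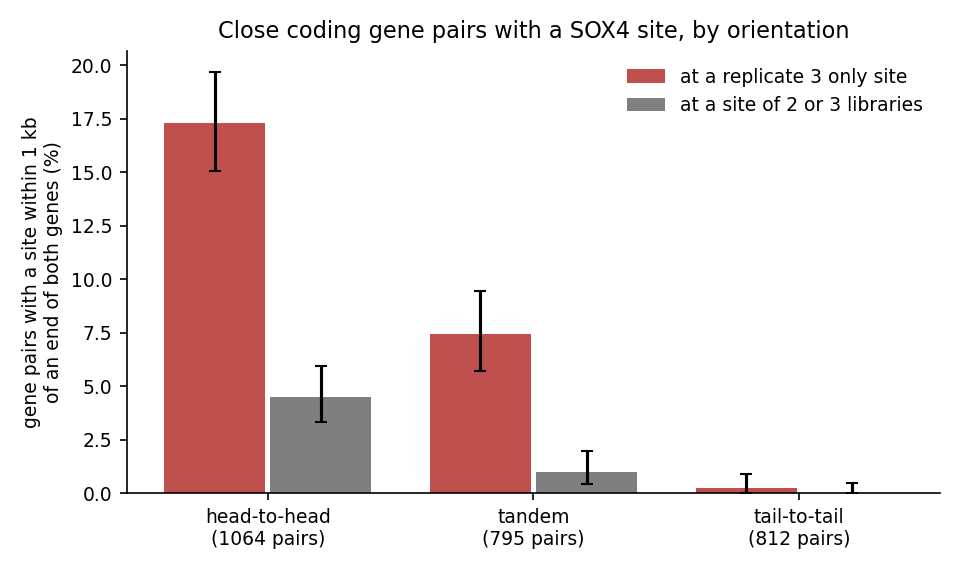
Share of close coding gene pairs (ends within 2 kb, in percent, y axis) that had both genes within 1 kb of a site of replicate 3 alone (red) or of 2 or 3 libraries (grey), by orientation of the pair; bars are shares and error bars exact 95% binomial intervals. The red bars stand at 17.3%, 7.42% and 0.246% for head-to-head, tandem and tail-to-tail pairs, with no adjustment for the spacing of the pairs.

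Head-to-head pairs with a site were spaced much like all head-to-head pairs. The signed gap between the starts had a median of 96.5 bp at the sites and 116 bp over all 1064 pairs, and the genes overlapped at their starts in 29.3% of pairs at sites and 28.5% of all. By gap, 19.1% (15.3 to 23.2%) of pairs with starts 0 to 200 bp apart had a site, 17.6% of those more than 200 and up to 500 bp apart, 12.7% (5.27 to 24.5%) of those beyond that and up to 1000 bp, and 2.17% (0.0550 to 11.5%) of those wider still, up to 2000 bp. The 1 kb limit leaves little room for the widest pairs, so the last value is partly set by the choice of sites.

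Within a head-to-head pair the summit usually sat inside 1 of the genes, just past its start. The median distance was 191 bp to the nearer start and 403 bp to the farther start. The midpoint was inside exactly 1 gene at 143 of 193 sites (74.1%), inside both overlapping genes at 34 (17.6%) and inside neither, in the gap between the starts, at 15 (7.77%), and at 1 it was inside 3 genes. Where it was inside 1 gene, that gene was on the plus strand at 68 sites and on the minus strand at 75. Relative to the nearer start, 77.6% of these sites lay downstream, with a median of +130.5 bp. Only genes whose start was nearer to the site than their stop were used for this. At some short histone genes, such as H2BC11 with H2AC11, the start used was therefore the farther of the 2. With the start sites of the RefSeq promoter windows, which follow 1 transcript per gene rather than its outermost coordinate, the share was 79.8% and the median +147 bp. At regions of replicate 3 alone with a single gene in reach, 77.7% lay downstream of the start, with a median of +163 bp. Tandem sites did not lie to 1 side of the start: 54.2% were downstream, with a median of +42 bp, or 49.1% and -30 bp with the window start sites. The layout of head-to-head pairs partly sets their shares, which are therefore not like for like with those at single genes and tandem genes. The signed gap between the starts of head-to-head pairs with a site, negative where the genes overlap, had an upper quartile of 215 bp. Little DNA in reach therefore lies outside both genes. Where the genes do not overlap, a summit outside the gap is always downstream of its nearer start.

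**Figure D2:**
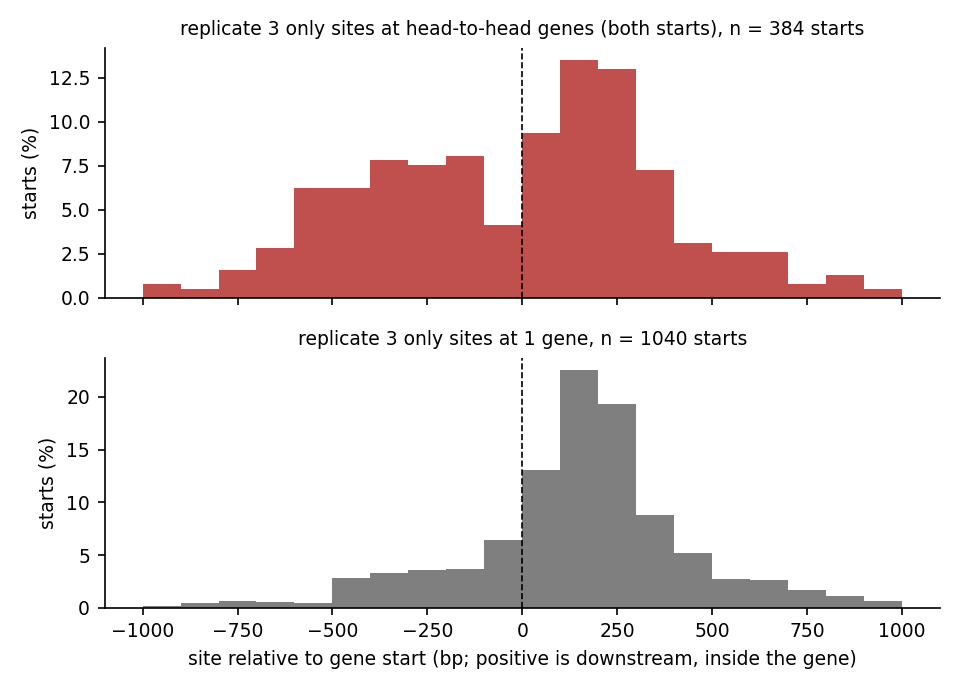
Position of replicate 3 only sites relative to gene starts (x axis, bp, positive inside the gene; y axis, percent of starts in bins of 100 bp), for both starts of head-to-head pairs (top, red) and for sites at 1 gene (bottom, grey). Only starts that were their gene's nearer end are drawn. Sites at 1 gene had a median of +163 bp. At head-to-head pairs the nearer of the starts so drawn had a median of +130.5 bp, and the starts left of 0 are mostly the farther start of the same pairs.

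At tandem genes the site went with the start and not with the stop. At the 56 tandem sites with exactly 1 start and 1 stop in reach, 48 (85.7%, 73.8 to 93.6%) were nearer to the start. The median distance to that start was 180 bp, and 37 of the 56 sites lay within 250 bp of the start, against 12 within 250 bp of the stop. Among regions of replicate 3 alone at a single gene of known strand, 1040 were at its start and 16 at its stop. RPL4, a gene of the large ribosomal subunit, is an example of a gene in reach by its stop only: the site at chromosome 15, position 66497809, lay 206 bp past the RPL4 stop and 47 bp before the start of SNAPC5, a gene of the complex that activates small nuclear RNA genes.

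The scores of the sites were ordinary for the list of replicate 3. They ran from 2.78 to 19.1 with a median of 5.49 and quartiles of 4.47 and 6.63, while the whole list had a median of 5.58 and regions of replicate 3 alone at a single gene a median of 5.27. The 53 regions of 2 or 3 libraries at 2 or more genes that held replicate 3 had a median replicate 3 score of 6.06. Of the 325 sites, 153 (47.1%) reached the median of the list, 7 scored over 10 and 49 under 4. Head-to-head sites had a median of 5.37 and a highest score of 9.76, against a median of 5.69 and a highest score of 15.8 for tandem sites. No test was made, because presence in the list and absence from the other lists both depend on signal.

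**Figure D3:**
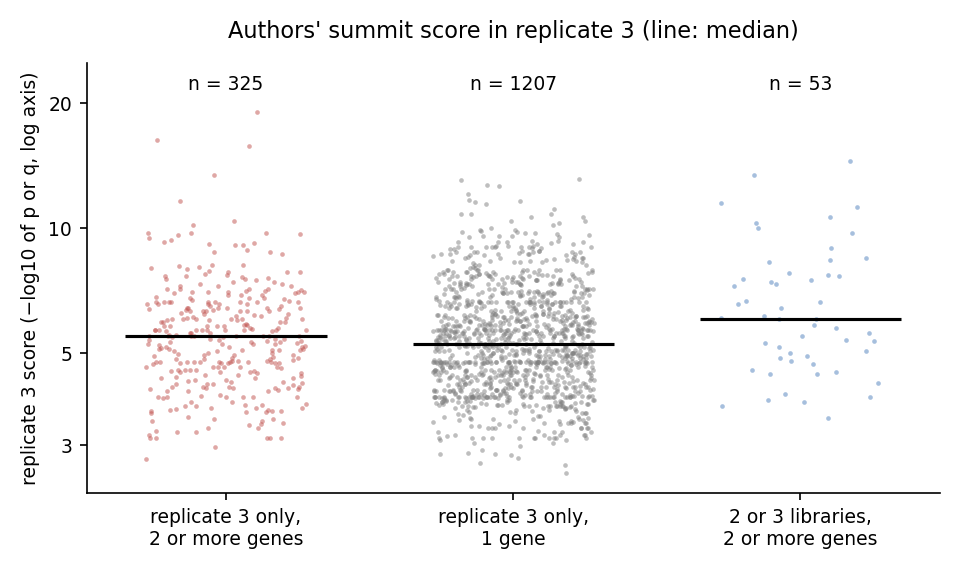
Authors' score in replicate 3 (y axis, on the −log10 scale) for the 325 sites, for 1207 regions of replicate 3 alone at 1 gene and for 53 regions of 2 or 3 libraries at 2 or more genes; each point is a region and lines are medians. The medians were 5.49, 5.27 and 6.06, with wide overlap.

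The 2 highest-scoring sites were also among those nearest to a summit of another library. The highest, at chromosome 6, position 30742882, scored 19.1 and lay 195 bp upstream of the start of FLOT1, the gene of the membrane scaffold flotillin-1, and 317 bp from an end of IER3, an immediate early gene of stress and growth signals. A summit of replicate 2 was 299 bp away. The next, at chromosome 13, position 30617377, scored 16.4, inside HMGB1, which encodes an abundant chromatin protein, and 220 bp past its start. Its other gene was USPL1, of a SUMO protease, at 543 bp. Replicate 2 had a summit 206 bp and replicate 1 a summit 595 bp from it. Both sites are thus replicate 3 only by the 200 bp rule and have other libraries close by.

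Most sites were far from the other lists. The nearest summit of replicate 1 or 2 was at a median distance of 394 kb, and over 100 kb away at 244 of the 325 (75.1%). It was within 1 kb at 20 (6.15%), against 7.21% of the regions of replicate 3 alone at 1 gene. The region at COMMD3 and COMMD3-BMI1 on chromosome 10 had a summit of another library 197 bp from that of replicate 3, just within the joining limit, and was therefore left out. Just inside the gene limit were the histone genes H3C11 and H4C13 at 1000 bp and TNNC2 with SNX21 at 998 bp, and just outside it LRP2BP with ANKRD37 at 1009 bp and AP3S2 with ARPIN at 1016 bp.

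Among the 20 highest scores, 7 belonged to head-to-head genes. MYL12A, a gene of the regulatory light chain of non-muscle myosin, and MYOM1, of the muscle protein myomesin, shared a site at chromosome 18, position 3248056, with a score of 9.76. It lay inside MYL12A, 574 bp past its start and 680 bp upstream of the MYOM1 start. ARL3, a small GTPase gene of cilia, and SFXN2, a mitochondrial sideroflexin gene, shared a site with a score of 9.73 at chromosome 10, position 102714022. It lay inside ARL3, 375 bp past its start. TMED5, a gene of secretory cargo transport, overlaps CCDC18 at its start, and the site at chromosome 1, position 93180079, with a score of 9.68, was inside both genes.

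PI4KA, the gene of a phosphatidylinositol kinase of the plasma membrane, and SNAP29, a membrane fusion gene, had their starts 196 bp apart, and their site at chromosome 22, position 20858564, scored 9.46, inside PI4KA. PIGP, of GPI anchor synthesis, and TTC3, a ubiquitin ligase gene, shared a site with a score of 9.22 at chromosome 21, position 37072744, inside PIGP. SMG6, of nonsense-mediated RNA decay, and SRR, of serine racemase, overlap at their starts, and the site at chromosome 17, position 2303729, scored 9.14. SESN1, a stress-response gene of the sestrin family, and CEP57L1 shared 2 sites 327 bp apart on chromosome 6, which scored 4.94 and 9.10. The summits of the ARL3, TMED5 and PI4KA sites fell outside the SFXN2, TMED5 and PI4KA windows printed above. That of DDB1 and TKFC, with a score of 8.79, fell on base 267 of the TKFC window.

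Tandem genes made up another 7 of the 20. KRABD2 and RPL26, a ribosomal protein gene, had a site with a score of 15.8 at chromosome 17, position 8376703, 1 bp past the KRABD2 start. A site with a score of 13.4 lay 155 bp past the start of AGO3 and 341 bp past the stop of AGO1, both genes of Argonaute proteins that carry small RNAs, at chromosome 1, position 35930873. MTF1, the gene of the metal-responsive transcription factor, had a site with a score of 10.4, 410 bp upstream of its start and 695 bp past the stop of INPP5B. PIP4K2B, a phosphoinositide kinase gene that follows CWC25, scored 9.76, WDR6 after P4HTM 9.11, and MYG1 after PFDN5, a prefoldin gene, 8.85, beside the SNAPC5 site at 10.2. In all 7 the start was nearer to the summit than the stop.

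The other sites of the 20 were those of FLOT1, HMGB1, CCT6A, SDR39U1, CNBD2 and H2BC12. CCT6A, a subunit gene of the cytosolic chaperonin, had a site near each end, with a score of 11.7 near SUMF2 and 4.93 near PSPH, at positions 56064227 and 56051981 of chromosome 7. At the lower end of the scores were THAP5 with DNAJB9, a chaperone gene of the endoplasmic reticulum, at 2.78, USP19 with LAMB2, a laminin gene, at 2.97, and CIAO2B with CES2 at 3.12. CHMP2A with UBE2M scored 3.12 and UBE2D3 with CISD2 scored 3.13, with a summit of replicate 1 at 278 bp from the UBE2D3 site. Other sites, not named here, tied with UBE2D3 at this score and had no other summit so close.

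In 19 cases the same genes held 2 sites, which were up to 1069 bp apart with a median of 443 bp. Head-to-head genes accounted for 14 of the 19. Whether the 2 summits enclosed both starts was judged for 13 of the 19 cases: they did in 6 and did not in 7. The 6 include DAB1 with OMA1, whose starts are on the same strand and which are not head-to-head. The head-to-head histone pairs H2AC13 with H2BC13 and H2AC17 with H2BC17 were not judged, though their starts are known. TXNDC12, a thioredoxin family gene, and BTF3L4 had the widest spacing, with scores of 5.51 and 7.24 on either side of their starts. Other enclosed pairs were PROSER1 with NHLRC3, SCO1 of cytochrome oxidase assembly with ADPRM, and the histone genes H2BC11 and H2AC11, where the higher score was 7.05. CUL4A, a cullin gene of ubiquitin ligases, and PCID2 had scores of 6.21 and 6.42 that did not enclose both starts.

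The 10 sites at 3 genes often counted 1 transcription unit under several symbols. COG5, of the Golgi tethering complex, faced DUS4L and its readthrough DUS4L-BCAP29 (score 7.02), CAB39L faced SETDB2 and SETDB2-PHF11 (4.22), and PIGY and PYURF shared a site with HERC3 (6.44). Others were SLC6A16 with CD37 and TEAD2 (8.16), TMEM217 and TMEM217B with TBC1D22B (7.15), CDNF with MSANTD7 and HSPA14 (5.42), and IL4I1 and NUP62 with ATF5 (4.11). PLCB3, BAD, a pro-apoptotic gene, and GPR137 scored 4.52, ZMYND12 with CCDC30 and PPCS 4.10, and EIF6 with MMP24OS and MMP24-AS1-EDEM2 6.17. Readthrough symbols were part of 9 sites and LOC symbols of 12.

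Gene groups were counted over their members that have another coding gene end within 2 kb, with the 9.87% of all such genes beside them. A gene counted by either end, so genes in reach by the stop alone, such as RPL4, are included. Replication-dependent histone genes, which supply the proteins that package new DNA, had the highest share, 20 of 53 (37.7%, 24.8 to 52.1%) at 14 sites. Histone genes lie close together, so 1 site counts for several of them. H2BC12 and H2AC12 had sites scoring 5.82 and 9.25. Translation initiation factors had 6 of 21 (28.6%, 11.3 to 52.2%). EIF4A1, of the RNA helicase that opens messenger RNA, had a score of 7.15 at its start, 94 bp past it, and 4.14 near its stop, where CD68 begins. EIF4E2 faced TIGD1 (6.06), and EIF2B1, of a nucleotide exchange factor, faced GTF2H3 (5.69).

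Mitochondrial ribosomal protein genes had 9 of 45 (20%, 9.58 to 34.6%) and respiratory chain genes 5 of 39 (12.8%, 4.30 to 27.4%), with intervals that include the background. Genes of chaperonins and of mitochondrial import, a list that also holds the cytosolic chaperonin with CCT6A and TCP1, had 6 of 26 (23.1%, 8.97 to 43.6%). These lists share sites: MRPL18 faced TCP1, a chaperonin gene, at a site with a score of 5.37, and TIMM8B, of protein import, shared a score of 4.72 with SDHD, of respiratory complex II. MRPS6 and SLC5A3 have the same start, 533 bp from a site scoring 7.42, and MRPL40 faced HIRA, a histone chaperone gene (5.29). A score of 5.51 lay inside MRPL53, with a summit of replicate 1 at 306 bp. TIMM13 had a score of 7.24 and TOMM70 one of 5.37. ATP5PF, of the ATP synthase, overlapped GABPA at its start (4.87). ATP5F1E of the same enzyme had 2 sites, with scores of 3.37 and 5.59, and NDUFB3 of complex I 1 site with a score of 5.09.

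DNA repair genes had 9 of 55 (16.4%, 7.77 to 28.8%), and DNA replication genes 1 of 24 (4.17%, 0.105 to 21.1%), ORC6, of the origin recognition complex. CHEK2, of a checkpoint kinase, faced HSCB at a site with a score of 7.68, and RECQL, a helicase gene, faced GOLT1B with 6.98 and had a summit of replicate 2 at 488 bp. PMS2, of mismatch repair, faced AIMP2 with 6.15. DDB1, of a ubiquitin ligase that handles damaged DNA, is described above. Over all head-to-head pairs, 17.3% held a site of this kind. Of 10 pairs listed as textbook neighbours 1 did, BRCA2 with ZAR1L, whose site at chromosome 13, position 32315639, scored 6.06. It lay 562 bp past the outermost BRCA2 start and 131 bp past the start site of its promoter window. HSPD1 with HSPE1, the mitochondrial chaperonin pair, held a region of more than 1 library instead. No region lay within 1 kb of both genes of ATM with NPAT, TAP1 with PSMB9, COL4A1 with COL4A2, MRPS12 with SARS2, SIRT3 with PSMD13, TK1 with AFMID or CAMKMT with PREPL, and PPAT with PAICS had no ends within 2 kb in the table.

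Other groups were near the background or had wide intervals. Cell division and kinetochore genes had 6 of 29 (20.7%, 7.99 to 39.7%), among them CCNA2, of cyclin A, with a score of 7.15 and a summit of replicate 2 at 267 bp, and 3 genes of the anaphase-promoting complex, ANAPC10 (7.02), ANAPC16 (6.76) and ANAPC13 with 2 sites. RNA polymerase subunit genes had 4 of 21 (5.45 to 41.9%), POLR1D, POLR1B with a score of 5.52, POLR1H 4.73 and POLR3F 3.58. Aminoacyl-tRNA synthetase genes had 3 of 18 (16.7%), among them EARS2 with a score of 7.36 and CARS2 with 3.44. Cytosolic ribosomal protein genes had 5 of 32 (15.6%, 5.28 to 32.8%). RPS18 had sites at its start, facing VPS52 (5.49), and near its stop, beside B3GALT4 (4.77). Splicing factor genes had 4 of 39 (10.3%), LSM3, LSM5, SRSF9 and U2AF2, and proteasome genes 2 of 17 (11.8%), PSMA5 with a score of 7.44 and PSMA2, opposite MRPL32, with 4.64.

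The study's design names immune pathways. MHC class I antigen processing genes had 1 of 11 (9.09%, 0.230 to 41.3%): B2M, the light chain gene, which faces PATL2 and had a site with a score of 5.66 at 322 bp past its start. Innate sensing and interferon genes had 2 of 15 (13.3%, 1.66 to 40.5%). IFNAR2, a receptor subunit of type I interferon, had a score of 7.84, and its second symbol there is its own readthrough IFNAR2-IL10RB. IRF9, a transcription factor of the interferon response, had 3.91 at 141 bp past its start, after RNF31. Zinc finger ZNF genes had 5 of 128 (3.91%, 1.28 to 8.88%), ZNF654, ZNF628, ZNF524, ZNF276 and ZNF681, and olfactory receptor genes, of the sensory cells of the nose, 0 of 36 (up to 9.74%).

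**Figure D4:**
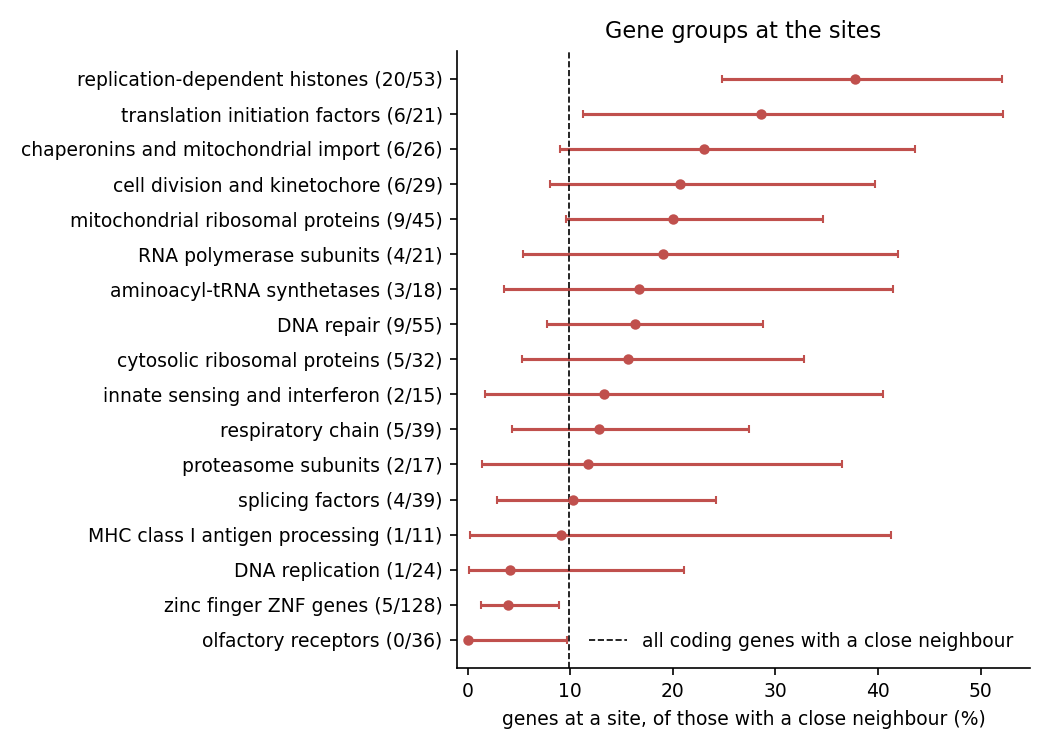
Genes at a replicate 3 only site of 2 or more genes, as a percent of the genes in each group with another coding gene end within 2 kb (x axis), with exact 95% binomial intervals; counts stand beside the names and the dashed line is the 9.87% of all such genes. Histone genes stand at 37.7% and olfactory receptor genes at 0.

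Chromosomes differed in how many of their pairs held a site. Of head-to-head pairs, 14 of 26 on chromosome 13 had one (53.8%, 33.4 to 73.4%), against 3 of 88 on chromosome 19 (3.41%, 0.709 to 9.64%) and 7 of 84 on chromosome 17 (8.33%, 3.42 to 16.4%). Regions of replicate 3 alone at a single gene went the same way: 48 for 338 coding genes on chromosome 13 (14.2%), 35 for 1451 on chromosome 19 (2.41%) and 28 for 1169 on chromosome 17 (2.40%). Chromosome 1 had the most sites, 52, and also the most coding genes, 2062. Chromosome 6 followed with 39 sites for 1049 coding genes. Of close pairs of any orientation, 11.4% on chromosome 1 and 12.9% on chromosome 6 had both genes at a site. That share was 30.8% on chromosome 13 and 7.92% over the 19 autosomes.

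**Figure D5:**
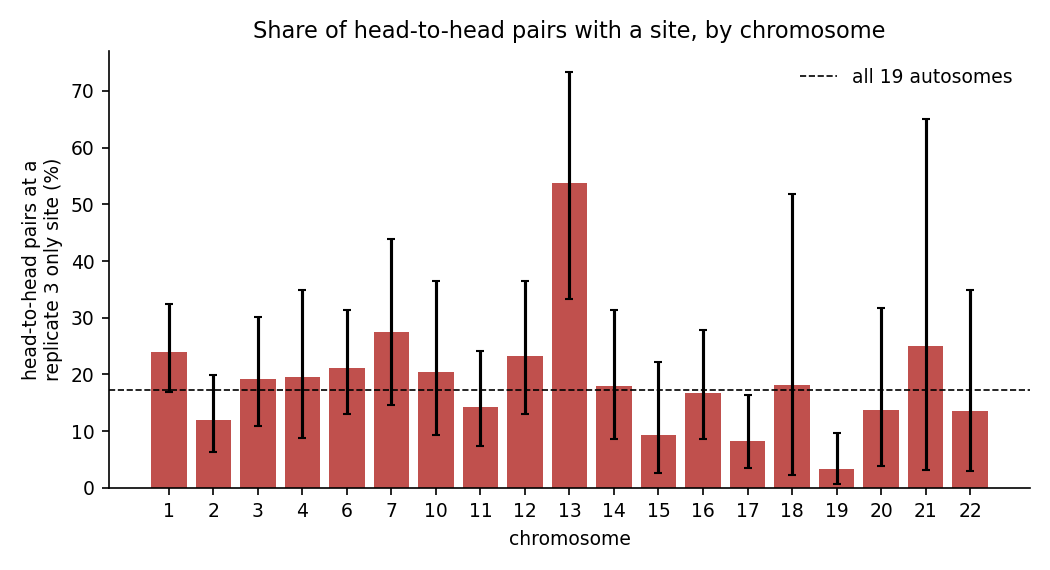
Share of head-to-head coding gene pairs (y axis, percent) with both genes at a replicate 3 only site on each of the 19 autosomes (x axis), with exact 95% binomial intervals; the dashed line is the share over all of them. Chromosome 13 stands at 53.8% and chromosome 19 at 3.41%, around 17.3% overall.

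In GC and CpG content, and in the GC box and ETS letters, the head-to-head promoters with a site resembled those without any. Some rarer letters, such as AACAAT, CTCGCGAG and TATAAA, differed more, and the shares of windows were given no interval. The 334 windows of head-to-head genes within 1 kb of a site had a median GC content of 65.0%, against 64.3% in 1518 windows of head-to-head genes with no region of any library and 62.7% in all 13634 coding windows. The median ratio of observed to expected CpG was 0.864, 0.843 and 0.765 in the same order. The SOX core AACAAT stood in 2.99% of the windows at sites, against 5.07% of head-to-head windows with no region and 7.08% of all, and its fellow ACAAAG in 9.88%, against 8.76% and 12.8%. The GC box was in 68.9%, 70.4% and 58.8%, and CCGGAAG, a letter form of the ETS site, in 26.6%, 25.03% and 14.4%.

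GCGCATGC, part of the NRF1 site, was in 8.98% of windows at sites, against 6.59% of head-to-head windows with no region and 4.26% of all, and AAGATGGCG of YY1 in 6.29%, against 4.74% and 2.77%. CTCGCGAG, the centre of a palindrome of some CpG promoters, was in 2.69%, 0.988% and 1.55% in that order, and TATAAA of the TATA box in 6.89%, 3.82% and 9.81%. The CCAAT box was in 36.5%, 40.6% and 36.3%. Both strands were searched, and a match is a run of letters and no measured binding. Only 98 of the 303 sites with a window had the summit inside one, and at 9 of these 98 sites such a window held a SOX core as well. The share of all windows with either SOX core was not counted, so the 9 sites have no background here.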

How the data were processed

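SOX4 ChIP-seq libraries of BT549 cells (3, in 1 group) were sequenced as paired ends, per the labels' protocols. The tools named in the submitters' processing notes are MACS2, BWA and SAMtools; versions are not given in the sources used here. Each deposited list holds 1 bp summits made per library, with a score that the authors deposited on a −log10 scale, with no word on whether of p or q. It was used only within the list of replicate 3. The notes name hg19, but contig names and positions in the lists are those of GRCh38. Sequencing depth is unknown.

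Summits were joined over gaps of up to 200 bp. Gene ends came from the RefSeq table of GRCh38.p14 (20037 coding genes). Strand came from the RefSeq promoter table, which holds 15842 of them; the outer coordinate on that strand was taken as the start. Windows of opposite strands that overlap were reverse complements in 633 of 633 cases. Close pairs have ends within 2 kb. Shares have exact 95% intervals (SciPy 1.17.1, Python 3.11.15). No hypothesis test was made, because the regions were selected on the readout and regions are no replicates. In simulated lists, the steps found the planted pairs, apart from those given a close summit of replicate 1, which the rule drops. The planted summits lay midway between close starts, a simpler setting than that of the real sites.

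Sites and gene lists were chosen with earlier results of these data known. The text names the 20 highest and 5 lowest scores, sites at 3 genes, up to 4 genes per list (5 for some), textbook pairs and, after their values were seen, examples of pairs with 2 sites and genes used as limits. Motif letters of 10 or more bases were replaced by shorter cores after the files were seen; letters for CRE, E-box, AP-1, E2F and ZNF143 sites were also counted. A gene that this rule names is not reported here.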

Additional observations from a re-analysis of the deposited data

How the results depend on the processing

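The number of sites, the head-to-head share, the median score and the median distance to the nearer start were recomputed under 12 other settings, 48 values in all, of which 41 stayed within 1.5 times the count, the interval of the share or 1 SD of the value. That SD is the spread of single sites, a limit so wide that a median can hardly pass it, so the count of 41 is no measure of stability. The median score ran from 5.37 to 6.66 and the median distance from 148 to 200 bp. That distance used only genes whose start was nearer to the site than their stop. The number of sites moved from 325 to 200 with gene ends within 500 bp, to 169 with only summits at or above the median score of their list, to 211 with gene starts in place of either end, and to 204 with the start sites of the promoter windows, a setting added after the data were seen. The head-to-head share moved from 71.2% to 63.6% with gene ends within 2 kb, to 91.5% with gene starts and to 81.9% with window start sites; the last 2 settings leave out stops by construction. Without replicate 1 there were 349 sites and without replicate 2 there were 344; without replicate 3 there are none. No paired analysis was possible because the 3 libraries form 1 group. Which list a summit is in depends on signal and on the peak caller's threshold, and the lists give neither depth nor a control.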
